A study of Mus musculus with 4 samples.

Results

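DNA replication and mitosis genes were followed in bulk RNA-seq of mouse granulosa cells (GCs), the follicle cells that enclose and feed the oocyte. The 36 genes were picked by name, 18 for replication and 18 for mitosis, and all 36 were found by Ensembl identifier among the 55385 genes of the deposited count table. The 4 libraries came from preantral follicles of Kunming mice that were 12 to 14 days old, each follicle grown alone in medium with FSH for 6 days. In 2 libraries (NT4 1 and NT4 2) the medium also held neurotrophin-4 (NT-4), a ligand of the receptor tyrosine kinase TRKB, and the other 2 (Control 1 and Control 2) had no NT-4. The labels give no NT-4 dose. By the study's text, the work after its dose series used a single dose of NT-4, and the number of follicles in a library is not given in the sources used here. By the study's methods, the cells were the cumulus GCs left once the oocyte had been removed. Its results name them only as GCs isolated from the follicles. The labels do not say where the libraries of a group came from, while the study describes them as samples of independent experiments. Every p below rests on the spread between these libraries. The fits share that spread over genes, so the error of a gene comes in part from other genes.

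A dividing cell copies its DNA in S phase and shares it out in mitosis. Before S phase, the MCM complex, a ring helicase, is loaded on origins with the help of Cdc6 and Cdt1. Cdc45 and the GINS complex then switch the ring on, primase and DNA polymerase alpha start each new strand, the sliding clamp PCNA holds the later polymerases on DNA, and ribonucleotide reductase and thymidylate synthase supply the building blocks. Entry into mitosis is driven by Cdk1 with A and B cyclins. Polo and Aurora kinases build the spindle, centromere proteins and motors attach and move chromosomes, and Bub1 and Bub1b hold back Cdc20, the activator of the ubiquitin ligase that ends mitosis. GC division is a large part of preantral follicle growth, and these genes are commonly read as markers of GC proliferation. E2F factors act at the promoters of many replication genes, and the MuvB complex acts through the cell cycle homology region (CHR), often beside CCAAT boxes, at promoters of many mitosis genes.

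The subsets differed mainly on the E2F and CHR motifs, with values given below. The promoters of 6 members, fixed by name, show which of the E2F, CHR and CCAAT motifs their windows hold. Each runs 5′ to 3′ over 300 bases (250 before to 50 after the gene start, RefSeq, build GRCm38.p6). Capitals mark E2F letters (TTTGGCGC, TTTCGCGC or GGCGGGAA), CHR letters (TTTGAA or, as a variant, TTTAAA) and CCAAT letters, each on either strand.
Pcna, chr2:132253131-132253430, minus strand: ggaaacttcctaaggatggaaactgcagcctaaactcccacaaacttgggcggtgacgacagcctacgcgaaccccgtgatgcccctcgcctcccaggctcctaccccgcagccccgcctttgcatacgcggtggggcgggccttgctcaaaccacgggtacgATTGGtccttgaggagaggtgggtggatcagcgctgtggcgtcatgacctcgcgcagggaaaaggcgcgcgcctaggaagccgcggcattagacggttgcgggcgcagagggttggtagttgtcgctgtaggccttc
Mcm2, chr6:88898731-88899030, minus strand: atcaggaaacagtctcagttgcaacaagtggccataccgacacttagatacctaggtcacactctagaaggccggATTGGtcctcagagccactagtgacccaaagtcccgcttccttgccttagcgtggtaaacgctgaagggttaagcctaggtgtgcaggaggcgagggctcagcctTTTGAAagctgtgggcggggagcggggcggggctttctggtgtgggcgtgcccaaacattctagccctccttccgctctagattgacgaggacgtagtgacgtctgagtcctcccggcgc
Mki67, chr7:135716330-135716629, minus strand: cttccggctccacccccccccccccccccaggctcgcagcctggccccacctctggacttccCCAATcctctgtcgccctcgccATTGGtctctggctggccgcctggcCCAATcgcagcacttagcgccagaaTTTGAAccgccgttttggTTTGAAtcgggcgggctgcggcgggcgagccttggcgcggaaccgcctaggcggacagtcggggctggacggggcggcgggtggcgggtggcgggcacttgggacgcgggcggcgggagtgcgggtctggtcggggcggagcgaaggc
Top2a, chr11:99024140-99024439, minus strand: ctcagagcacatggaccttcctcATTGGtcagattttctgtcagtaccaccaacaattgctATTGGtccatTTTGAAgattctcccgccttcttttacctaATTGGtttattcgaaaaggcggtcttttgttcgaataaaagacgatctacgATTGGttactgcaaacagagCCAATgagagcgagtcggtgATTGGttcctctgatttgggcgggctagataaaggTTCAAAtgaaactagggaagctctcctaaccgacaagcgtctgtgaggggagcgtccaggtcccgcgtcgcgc
Cdk1, chr10:69352863-69353162, minus strand: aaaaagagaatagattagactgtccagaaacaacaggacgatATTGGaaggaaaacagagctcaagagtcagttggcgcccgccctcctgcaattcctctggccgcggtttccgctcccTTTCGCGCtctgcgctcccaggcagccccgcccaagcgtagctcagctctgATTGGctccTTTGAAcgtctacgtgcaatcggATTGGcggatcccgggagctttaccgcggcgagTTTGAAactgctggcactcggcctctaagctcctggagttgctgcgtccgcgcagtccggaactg
Ccnb1, chr13:100786437-100786736, minus strand: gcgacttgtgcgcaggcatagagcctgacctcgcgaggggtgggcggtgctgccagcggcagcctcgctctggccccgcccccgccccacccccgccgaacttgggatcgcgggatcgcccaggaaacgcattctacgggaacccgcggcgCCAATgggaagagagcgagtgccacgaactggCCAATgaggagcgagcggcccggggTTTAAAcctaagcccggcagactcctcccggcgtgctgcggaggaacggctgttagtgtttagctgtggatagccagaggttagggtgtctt
The Pcna and Mcm2 windows hold no E2F letters, and all 4 mitosis windows hold both CHR and CCAAT letters.

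Of the 18 genes in each subset, 15 had a promoter entry (the others were Gins1, Gins2, Mcm4, Aurkb, Ccna2 and Tpx2). The E2F letters stood in 8 of 15 replication promoters (53.3%) and in 1 of 15 mitosis promoters (6.67%), that of Cdk1, against 2.96% of the 32851 promoters of the table. The CHR letters showed the opposite order, with 14 of 15 mitosis promoters (93.3%), 4 of 15 replication promoters (26.7%) and 27.6% of the table. CCAAT letters stood in 14 of 15 mitosis promoters (93.3%), 12 of 15 replication promoters (80.0%) and 37.4% of the table. Both CHR and CCAAT letters were found in 13 of 15 mitosis promoters (86.7%) and 4 of 15 replication promoters (26.7%), against 10.7% of the table. Mcm6 held the most E2F matches, 3, while the window of Pcna, shown above, held only a CCAAT match and those of Tyms and Cdc6 held no match to any of the letters. Bub1 was the mitosis gene without CHR letters and Birc5 the one without CCAAT letters. A match describes the sequence, not a bound site, and the libraries did not measure binding.

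**Figure D1:**
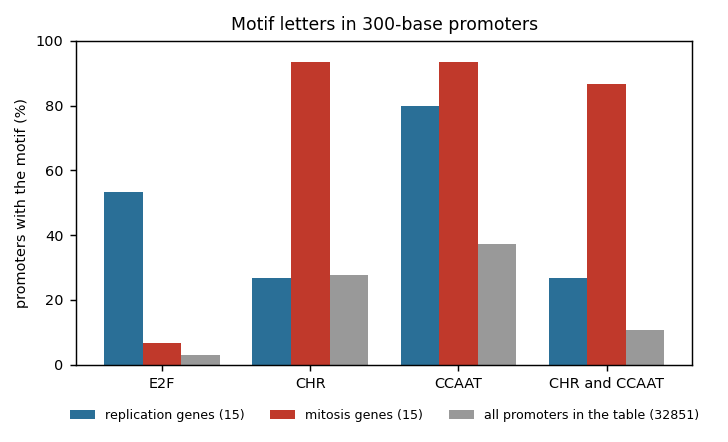
Share of 300-base promoters (%) that hold E2F, CHR, CCAAT or both CHR and CCAAT letters on either strand, for the 15 replication and 15 mitosis genes with an entry and for all 32851 promoters of the table. E2F letters stood mainly in replication promoters (53.3%) and CHR letters in mitosis promoters (93.3%).

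Library totals ran from 49520092 to 78704020 counts (12380023 to 19676005 read pairs if each adds 4 counts, a rate taken from the pile-up of low counts at multiples of 4), and 22363 to 23052 genes had a count. Levels are given in CPM, counts taken relative to the library total after edgeR's TMM scaling. All 14 granulosa markers were detected, and their summed level was 14850 CPM (Control 1), 18260 (Control 2), 13090 (NT4 1) and 20210 (NT4 2). Oocyte markers summed to 100.2 to 141 CPM with no separation by group. The 12 theca and stroma markers, which include Cyp17a1, Dcn and Acta2, summed to 643 and 658 CPM in Control and to 876 and 813 CPM in NT4. Of these 12, 11 were higher in NT4 (9819 of the 19259 genes tested were) and 6 had both NT4 libraries above both Control libraries (background 13.4%). By edgeR's quasi-likelihood test, 4 of 12 reached an unadjusted p under 0.05 (background 1.99%) and 0 an adjusted one. Macrophage (at most 4.71 CPM), erythroid (at most 5.6), endothelium (at most 34.0) and surface epithelium markers (at most 43.7, with Krt19 and Upk1b at 0) were low. The part of theca and stroma cells in the results was not tested. In bulk RNA, fewer cells of a type and less RNA per cell cannot be told apart.

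Both subsets were well expressed in every library. Between genes, levels were compared per kilobase of exon (CPM per kb), on which the 36 members lay between percentile 56.6 and 97 of the 19259 genes tested. The exons of all annotated transcripts of a gene were merged for this, so the order of genes also depends on the annotation. Among replication genes the highest was Pcna, the sliding clamp, at 90.75 CPM per kb, followed by the helicase subunits Mcm6 at 56.8 and Mcm3 at 49.7 CPM per kb. The lowest were Pola1, the catalytic subunit of polymerase alpha, at 6.22, Cdc6 at 5.04 and Mcm10, which helps to start the fork, at 4.84 CPM per kb. Among mitosis genes Cdc20 led at 71.5 CPM per kb, before cyclin B2 (Ccnb2) at 57.2 and Top2a, the topoisomerase that untangles sister chromatids, at 47.0. The spindle motor Kif11 at 11.4, the kinetochore motor Cenpe at 6.61 and the kinetochore protein Cenpf at 4.71 CPM per kb were lowest. The summed level of the replication genes was 2048 CPM (Control 1), 2147 (Control 2), 1893 (NT4 1) and 2128 (NT4 2). For the mitosis genes the sums were 2154, 2357, 1951 and 2301 CPM in the same order. In both subsets NT4 1 was lowest and NT4 2 lay between the Control libraries. The ratio of the mitosis to the replication sum was 1.05 and 1.10 in Control and 1.03 and 1.08 in NT4.

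**Figure D2:**
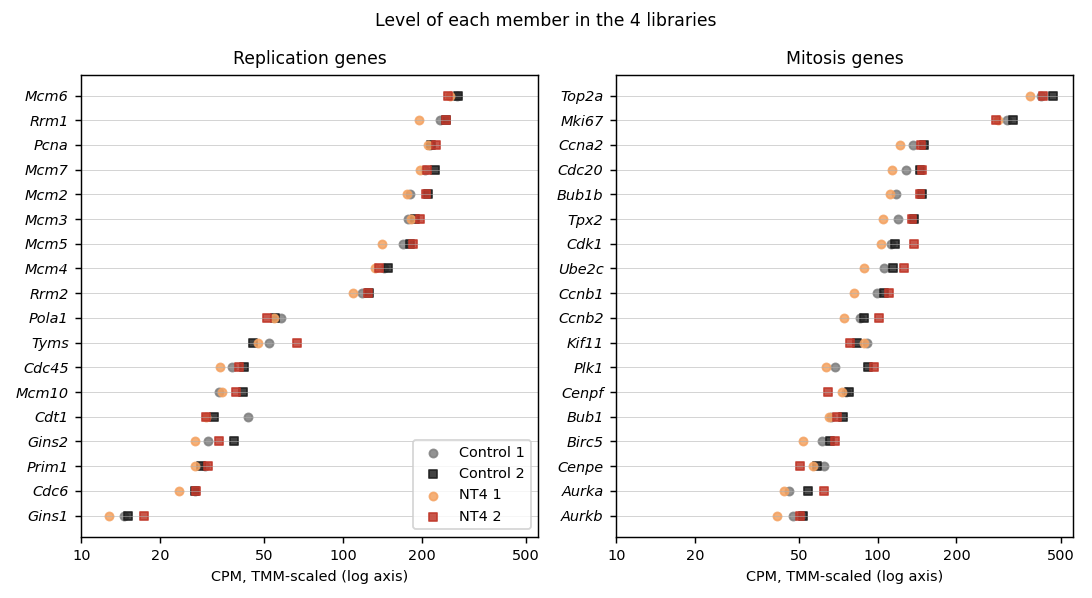
TMM-scaled CPM (log axis) of each replication gene (left) and mitosis gene (right) in the 4 libraries, ordered by mean CPM and not scaled by gene length. Most NT4 1 points lie at the left end of their row, and the points of the other 3 libraries overlap.

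The comparison of NT4 with Control asked whether the replication and mitosis programme of GCs differed with NT-4 in the medium. No member passed the test. By edgeR's quasi-likelihood test with Benjamini-Hochberg adjustment over all 19259 genes, 0 of 36 had an adjusted p under 0.05 (background 0.0% of genes tested). An unadjusted p under 0.05 was reached by 0 of 36 (background 1.99%). The study's threshold was a 2-fold change with a p under 0.05, read here as unadjusted, and 0 of 36 met it (background 1.08%). The DESeq2 Wald test, edgeR's exact test and limma voom also called 0 of 36, while over all genes they called 65, 59 and 0. The adjusted p of every member was 0.9999. The log2 fold changes (NT4 over Control) ran from −0.33 for Cdt1 to 0.23 for Tyms, with standard errors (SE) of 0.11 to 0.25. Their 95% intervals lay within a 2-fold change in either direction for 36 of 36 members and within 1.5-fold for 31.

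Differences were small and mostly negative. The median log2 fold change was −0.09 for the replication genes and −0.07 for the mitosis genes, beside 0.0045 over all genes tested. In each subset 14 of 18 members were lower in NT4, which makes 28 of 36 (77.8%, background 49.0%). Both NT4 libraries lay below both Control libraries for 7 of 36 (19.4%, background 12.7%), namely Mcm4, Mcm6, Cdt1, Pola1, Mki67, Cenpe and Cenpf. Both lay above for 0 of 36 (background 13.4%). These shares rest on genes that vary together within a library and were not tested. The direction depended on NT4 1. Without that library 12 of 36 members were lower and the medians were 0.03 (replication) and 0.08 (mitosis), and without NT4 2 there were 35 of 36 lower with medians of −0.15 and −0.23. Without Control 1 the count was 31 of 36, with medians of −0.11 and −0.15. Leaving out Control 2 gave 20 of 36 and brought the medians near 0, at −0.02 and −0.0058.

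**Figure D3:**
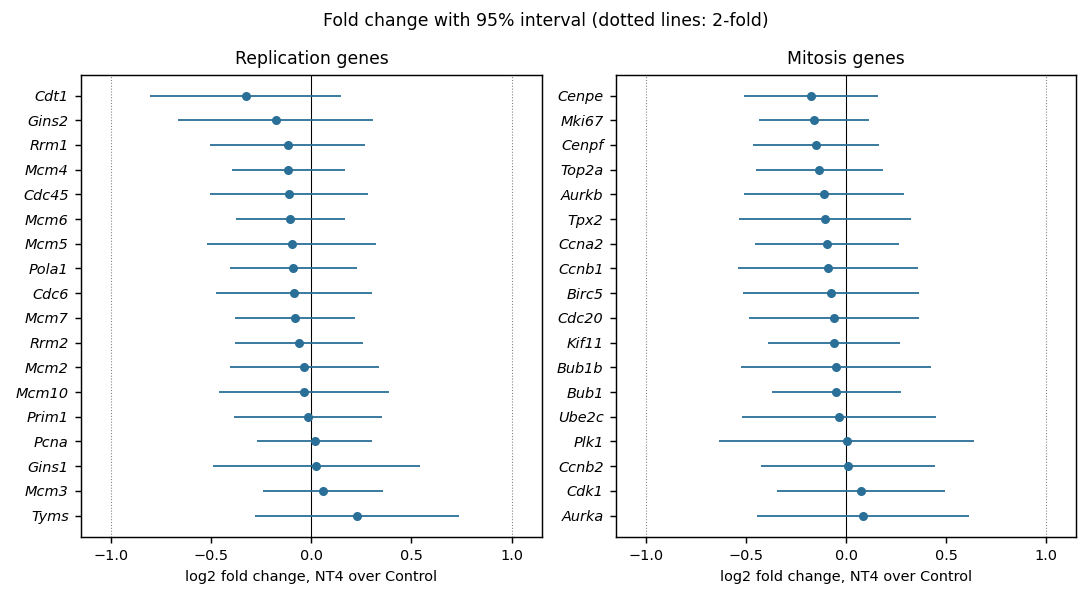
Log2 fold change of NT4 over Control for each replication gene (left) and mitosis gene (right), points with 95% intervals from the quasi-likelihood fit and dotted lines at a 2-fold change. All 36 intervals cross 0 and lie inside the 2-fold lines, from −0.80 (Cdt1) to 0.74 (Tyms) at the widest bounds.

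Among the replication genes the helicase came first. Mcm2 stood at 181 CPM (Control 1), 212 (Control 2), 176 (NT4 1) and 207 (NT4 2). The higher library of each group nearly matched, and so did the lower, so that the log2 fold change was −0.04 (SE 0.15). Mcm4 stood at 144 and 148.5 CPM in Control and 133 and 138 CPM in NT4. Both NT4 libraries were below both Control libraries. The log2 fold change of −0.11 was about the size of the SE of the fit (0.11, unadjusted p 0.347 in edgeR's quasi-likelihood test). Mcm6 behaved alike, at 274 and 276 CPM in Control and 257.5 and 253 CPM in NT4. The log2 fold change here was −0.11 (SE 0.11, unadjusted p 0.366 in edgeR's quasi-likelihood test). Within a group, the libraries differed by log2 ratios of 0.04 (Control) and 0.05 (NT4) for Mcm4 and 0.01 and −0.02 for Mcm6. The SE also draws on other genes. The log2 fold changes of the ring subunits Mcm3 (0.06), Mcm5 (−0.10) and Mcm7 (−0.08), and of Mcm10 (−0.04), were smaller than their SE and their libraries overlapped between groups.

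The licensing factor Cdt1, which brings the MCM ring to origins, had the smallest unadjusted p of the 36. Its gene lies on GRCm38 chromosome 8, bases 122568015 to 122573554. It stood at 43.4 CPM (Control 1), 32.1 (Control 2), 29.95 (NT4 1) and 30.1 (NT4 2). Control 1 alone was high, and Control 2 was close to both NT4 libraries. The log2 fold change was −0.33 (SE 0.19, 95% interval −0.80 to 0.15) with an unadjusted p of 0.137 in edgeR's quasi-likelihood test, and −0.10 without Control 1. Cdc6, its partner in licensing, stood at a log2 fold change of −0.09 (SE 0.15).

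The parts that switch the helicase on showed no separation of groups. Cdc45 had a log2 fold change of −0.11 (SE 0.16) and the GINS subunit Gins1 one of 0.02 (SE 0.21). Gins2 stood at 30.5 CPM (Control 1), 38.5 (Control 2), 27.2 (NT4 1) and 33.7 (NT4 2). Control 2 was highest, NT4 1 lowest, and the groups overlapped, with a log2 fold change of −0.18 (SE 0.19, unadjusted p 0.395 in edgeR's quasi-likelihood test) that became 0.0031 without Control 2. Of the exon bases of Gins2, 67.3% are shared with Gse1 on the opposite strand. Whether the counting used strand is not stated, so reads of Gins2 and Gse1 could not be told apart with certainty.

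At the fork itself, Pcna stood at 216 and 218 CPM in Control and 211 and 227 CPM in NT4. The NT4 libraries enclosed the Control libraries, and the log2 fold change was 0.02 (SE 0.11, 95% interval −0.27 to 0.30). Its processed pseudogene Pcna-ps2 held 481 to 797 counts a library, which may include reads of Pcna. Pola1 was at 58.2 and 54.9 CPM in Control and 54.7 and 51.5 CPM in NT4, a log2 fold change of −0.09 (SE 0.13), with the nearer libraries of the groups almost equal. For Prim1, the primase subunit that makes the RNA primer, it was −0.02 (SE 0.15).

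Genes of nucleotide supply split in sign. Rrm1, the large subunit of ribonucleotide reductase, stood at 234.5 CPM (Control 1), 248 (Control 2), 195.5 (NT4 1) and 249 (NT4 2). NT4 1 alone was low, and the log2 fold change was −0.12 (SE 0.15, unadjusted p 0.473 in edgeR's quasi-likelihood test). The small subunit Rrm2 had a log2 fold change of −0.06 (SE 0.13). Tyms (chromosome 5, 30058202 to 30073617), which makes thymidylate, stood at 52.1 CPM (Control 1), 45.3 (Control 2), 47.4 (NT4 1) and 66.6 (NT4 2). NT4 2 alone was high while NT4 1 lay between the Control libraries. The log2 fold change was 0.23 (SE 0.20, 95% interval −0.28 to 0.74, unadjusted p 0.307 in edgeR's quasi-likelihood test). It was 0.45 without NT4 1, where Tyms was the single member with an unadjusted p under 0.05 (0.043, adjusted p 0.91), and −0.04 without NT4 2. Such a fit takes its spread from the Control libraries alone, and the NT4 library kept for that p is the one where Tyms was high.

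Among the mitosis genes, the proliferation marker Mki67, which coats mitotic chromosomes, had the smallest p. It stood at 312 CPM (Control 1), 328 (Control 2), 288.5 (NT4 1) and 283 (NT4 2). Both NT4 libraries were below both Control libraries, by a log2 fold change of −0.16 (SE 0.11, 95% interval −0.44 to 0.11, unadjusted p 0.197 in edgeR's quasi-likelihood test). With each library left out in turn it ranged from −0.20 to −0.12. Top2a stood at 420 CPM (Control 1), 466.5 (Control 2), 381 (NT4 1) and 427 (NT4 2). NT4 2 lay between the Control libraries, and the log2 fold change was −0.13 (SE 0.13, unadjusted p 0.328 in edgeR's quasi-likelihood test).

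The genes that drive mitotic entry did not share a sign. Cdk1 stood at 112 CPM (Control 1), 116 (Control 2), 103 (NT4 1) and 137 (NT4 2). The NT4 libraries were the lowest and the highest of the 4, and the log2 fold change was 0.07 (SE 0.17). Its partner cyclin B1 (Ccnb1) followed the same course, at 98.96, 106, 81.1 and 111 CPM, with a log2 fold change of −0.09 (SE 0.18). Cyclin A2 (Ccna2) stood at 136 and 150.5 CPM in Control and 122 and 147 CPM in NT4. NT4 2 again lay between the Control libraries, with a log2 fold change of −0.10 (SE 0.14, unadjusted p 0.530 in edgeR's quasi-likelihood test). Ccnb2 was level, at 0.0070 (SE 0.17). Exons of Ccna2 overlap Exosc9 on the opposite strand over 12.5% of their bases, and the pseudogenes Ccnb1-ps (113 to 229 counts) and Ccnb2-ps (58 to 118 counts) may hold reads of their parent genes.

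The kinases and their partners overlapped between groups. Plk1, the polo kinase, had the widest interval of the mitosis genes, −0.63 to 0.64 around a log2 fold change of 0.0030. It stood at 68.4 CPM (Control 1), 91.9 (Control 2), 63.5 (NT4 1) and 97.2 (NT4 2), so that each group spanned nearly the same range. Aurkb, the Aurora kinase of the chromosomal passenger complex, stood at 47.5 and 51.7 CPM in Control and 41.2 and 50.6 CPM in NT4. NT4 1 was lowest and NT4 2 lay between the Control libraries, with a log2 fold change of −0.11 (SE 0.16, unadjusted p 0.506 in edgeR's quasi-likelihood test). For Birc5, a subunit of the same complex, the log2 fold change was −0.08 (SE 0.17), for the spindle pole kinase Aurka 0.08 (SE 0.21) and for its activator Tpx2 −0.11 (SE 0.17).

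The checkpoint kinases Bub1 (−0.05, SE 0.13) and Bub1b (−0.05, SE 0.19), Cdc20 (−0.06, SE 0.17) and Ube2c (−0.04, SE 0.19), which hands ubiquitin to cyclin B, had log2 fold changes well inside their errors. Of the members at the kinetochore, Cenpe and Cenpf were lower in both NT4 libraries, while Bub1 and Bub1b overlapped between groups. Cenpe was at 62.3 and 58.7 CPM in Control and at 56.5 and 50.4 CPM in NT4, a log2 fold change of −0.18 (SE 0.13, unadjusted p 0.234 in edgeR's quasi-likelihood test). Cenpf was at 75.4 and 77.6 CPM in Control and at 72.9 and 64.8 CPM in NT4, for a log2 fold change of −0.15 (SE 0.13, unadjusted p 0.277 in edgeR's quasi-likelihood test). In both genes NT4 2, not NT4 1, was the lowest library. The motor Kif11, at 91.4 and 83.0 CPM in Control and 89.0 and 78.0 CPM in NT4, was also lowest in NT4 2 but overlapped between groups (log2 fold change −0.06, SE 0.13).

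What the members shared was a pattern over libraries. The lowest of the 4 values lay in NT4 1 for 27 of 36 members (75.0%), against 26.3% of all genes tested and 28.3% of the 10056 genes with a mean CPM of at least 10. The highest value lay in Control 2 for 16 members, in NT4 2 for another 16, in Control 1 for 4 and in NT4 1 for 0. Relative to a gene's mean over the 4 libraries, the median member of the replication subset stood at −0.01 (Control 1), 0.07 (Control 2), −0.13 (NT4 1) and 0.07 (NT4 2) on the log2 CPM scale. The mitosis genes were also lowest in NT4 1, with a wider range and with NT4 2 highest, at −0.02, 0.10, −0.21 and 0.14 in the same library order. The gap between the NT4 libraries thus exceeded the difference between the groups. NT4 2 was above NT4 1 for 16 of 18 replication genes, by a median log2 ratio of 0.18, and for 14 of 18 mitosis genes, by 0.38. Control 2 was above Control 1 for 14 and 16 of 18 genes, by medians of 0.06 and 0.12. The summed granulosa markers, of which Inha was the largest part (5819 CPM in NT4 1), were also lowest in NT4 1, and they were highest in NT4 2. Single markers went the other way, and Amh (299, 151, 390.5 and 91.4 CPM in the library order above), Amhr2 and Kitl were highest in NT4 1. The part of cell makeup in this pattern was not tested.

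**Figure D4:**
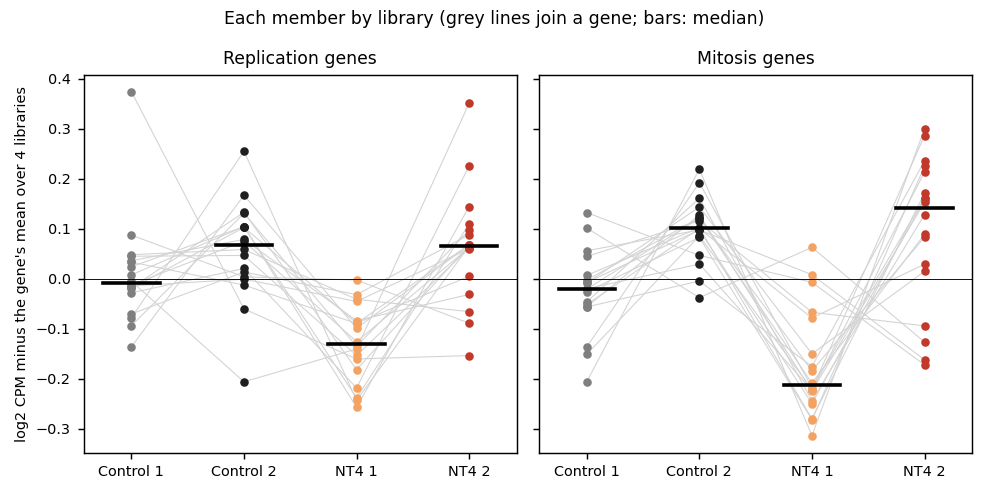
Log2 CPM of each member minus its mean over the 4 libraries (points, grey lines join a gene, black bars give the median), replication genes left and mitosis genes right. The medians are lowest in NT4 1 (−0.13 and −0.21) and the NT4 libraries lie further apart than the Control libraries.

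Within the mitosis genes, the gap between the NT4 libraries went with exon length. This length merges all annotated transcripts of a gene and can exceed that of the transcript expressed. This split was chosen after the values were seen. Of the 5 mitosis genes with at least 7000 exon bases (Mki67, Top2a, Cenpe, Cenpf and Kif11), only Top2a was higher in NT4 2 than in NT4 1, and their median log2 ratio was −0.17. All 13 shorter mitosis genes were higher in NT4 2, with ratios of 0.11 (Bub1) to 0.61 (Plk1) and a median of 0.41. Across all genes with a mean CPM of at least 10, NT4 2 was the higher library for 33.7% of 2642 genes with at least 7000 bases and for 61.3% of 7409 shorter genes. The medians of these were −0.13 and 0.08, so that both classes of mitosis genes were measured against a slope that runs through the whole table. Over the 18 mitosis genes, Pearson's r of the log2 ratio with log2 exon length was −0.82, over the 18 replication genes −0.08 and over all 10051 genes of that level with a ratio −0.26. These are descriptions across genes, and every gene's ratio comes from the same 2 libraries. Among replication genes, 2 of 3 long ones and 14 of 15 shorter ones were higher in NT4 2. In the other replication and mitosis genes the ratio was also lower for long genes, but most long genes were still higher in NT4 2. Of the other mitosis genes, listed by role, 12 of 15 long ones (median log2 ratio 0.14) and 28 of 29 shorter ones (0.22) were higher in NT4 2, with an r of −0.42. Of the other replication genes it was 7 of 9 long ones (0.10) and 31 of 34 shorter ones (0.25), with an r of −0.44. The E2F and MuvB regulators described further on showed no such difference, with medians of −0.02 for 5 long and −0.03 for 15 shorter genes. Between the Control libraries the medians of long and short genes over the table were nearly level, at 0.0048 and 0.03, and r over the mitosis genes was −0.46. Of the 7 members with both NT4 libraries below both Control libraries, Pola1, Mki67, Cenpe and Cenpf have at least 7000 exon bases. Over the table, the median log2 fold change of NT4 over Control was −0.05 for the long genes and 0.02 for the short ones. Within the mitosis genes these medians were −0.15 and −0.05, and within the replication genes −0.09 and −0.08. Pearson's r of this fold change with log2 exon length was −0.63 (mitosis), −0.00087 (replication), −0.155 (other mitosis) and −0.54 (other replication genes). Over all genes of that level it was −0.17. The part of length in these differences was not tested.

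**Figure D5:**
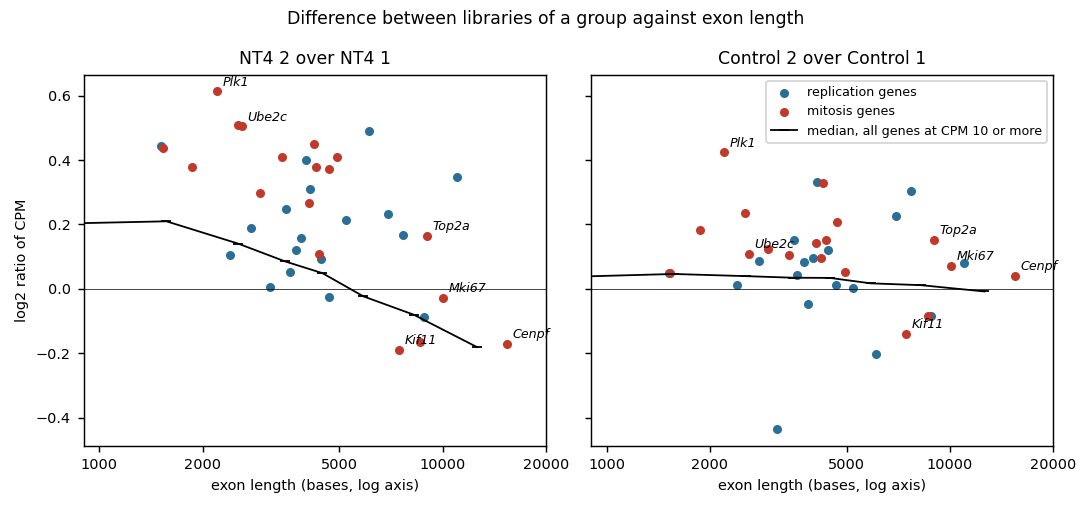
Log2 ratio of CPM between the libraries of a group against exon length (bases, log axis) for replication (blue) and mitosis genes (red), NT4 2 over NT4 1 left and Control 2 over Control 1 right. The black line joins medians of all genes with a mean CPM of 10 or more in length bins, and it falls from 0.21 to −0.18 on the left while it stays near 0 on the right.

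Other genes of these pathways, listed by role, were compared in the same way. Of 43 other replication genes, 30 were lower in NT4 (69.8%, background 49.0%, median log2 fold change −0.06) and 0 passed the adjusted p in edgeR's quasi-likelihood test. An unadjusted p under 0.05 was reached by 1 of 43, near the background of 1.99%. That gene was Ticrr, which helps to fire origins, at 35.6 and 36.7 CPM in Control and 28.3 and 28.1 CPM in NT4. Both NT4 values were below both Control values, with a log2 fold change of −0.36 (SE 0.14, adjusted p 0.9999 in edgeR's quasi-likelihood test). The next by p were the ligase Lig1 (−0.19, SE 0.12) and the fork protein Timeless (−0.24, SE 0.15), also lower in both NT4 libraries. NT4 1 held the lowest value for 30 of the 43 (69.8%, against 26.3% of all genes tested).

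Of 44 other mitosis genes, 37 were lower in NT4 (84.1%, background 49.0%, median −0.05) and 0 passed the adjusted p in edgeR's quasi-likelihood test. An unadjusted p under 0.05 was reached by 1 of 44, near the background of 1.99%. It was Hjurp (chromosome 1, 88262471 to 88277633), the chaperone that places the centromeric histone CENP-A. Hjurp stood at 169.6 CPM (Control 1), 185 (Control 2), 103.5 (NT4 1) and 105 (NT4 2). The groups were well apart and the NT4 libraries nearly equal. The log2 fold change was −0.77 (SE 0.12, 95% interval −1.06 to −0.47), with an unadjusted p of 9.5e-04 and an adjusted p of 0.749 in edgeR's quasi-likelihood test. The adjusted p was under 0.05 by DESeq2's Wald test (1.4e-04) and by edgeR's exact test (0.0376) and by no other of the 8 alternatives on all libraries, and leaving out a library gave −0.84 to −0.70. Its cargo Cenpa had a log2 fold change of −0.15 (SE 0.14) and was named after its value was seen. NT4 1 held the lowest value for 32 of the 44 (72.7%). The others named by p were Spc24 (0.29, SE 0.20) and Incenp (−0.21, SE 0.15), of the kinetochore and the passenger complex.

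Of 20 genes that act on such promoters (E2F factors with their partners, the retinoblastoma family, MuvB subunits, Mybl2 and Foxm1), 13 were lower in NT4 (65.0%, background 49.0%), with a median log2 fold change of −0.04 and 0 with an unadjusted or adjusted p under 0.05 in edgeR's quasi-likelihood test. NT4 1 held the lowest value for 5 of these 20, against 26.3% of all genes tested. Rb1, the E2F repressor, stood at 70.2 and 64.2 CPM in Control and 59.5 and 57.9 CPM in NT4, a log2 fold change of −0.19 (SE 0.12). Foxm1, an activator of mitosis genes, was at 81.1 CPM (Control 1), 74.5 (Control 2), 73.2 (NT4 1) and 34.0 (NT4 2). NT4 2 alone was low, the library that held the highest level of 16 members, and the log2 fold change of −0.54 (SE 0.36) became −0.09 without NT4 2 and −1.20 without NT4 1. The MuvB subunit Lin52 had a log2 fold change of −0.26 (SE 0.24).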

How the data were processed

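Per the study's methods, the authors trimmed reads with Cutadapt 1.9, mapped them with HISAT2 (Ensembl v99, GRCm38), assembled transcripts and estimated expression with StringTie and ballgown. Libraries were made with dUTP, and whether counting used strand is not stated. The deposited values are expected counts, estimated from coverage and not normalized. How they became whole counts is not stated. Of genes with a count from 1 to 12, 45.4% to 46.2% a library stood at 4, 8 or 12, so that about 4 counts per read pair was assumed for read pairs. On that assumption, a gene with 0 counts could reach 3 read pairs (0.152 to 0.242 CPM by library), which covers counting error only. All 4 single-library files matched the table.

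Counts were tested in R 4.3.3 with edgeR 4.0.16 (quasi-likelihood, TMM, default filter, two-sided, group alone, Benjamini-Hochberg over 19259 genes). SE and 95% intervals come from that fit, which moderates the spread of each gene by that of the other genes. Exon lengths and coordinates are GENCODE M21, with the exons of all transcripts of a gene merged for its length. Of 55385 identifiers, 55144 matched a symbol. With 2 libraries a group, a permutation test could not reach 0.05. Alternatives were DESeq2 1.42.0 size factors and Wald test, library totals, no filter, edgeR's exact test, limma 3.58.1 voom, counts divided by 4, a replicate block and leaving out each library. The procedure was tested on simulated data, and the outcome is not reported here.

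The members, lists, motifs and naming rule (6 fixed genes, the 6 smallest p and 3 highest and lowest levels per subset, the 3 smallest p of each other list) were chosen with earlier results of these data known.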

Additional observations from a re-analysis of the deposited data

How the results depend on the processing

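No member passed an adjusted p of 0.05 under any of the 8 alternatives on all libraries or the 4 that left out a library. Of 288 member values under the former, 278 kept their direction and 10 reversed, all near 0: Pcna at −0.0049 with library totals, Ccnb2 at −0.016 with library totals, −0.0059 with voom and −0.0089 with the replicate block, and Plk1 at −0.0017 with DESeq2 size factors, −0.020 with library totals, −0.0016 in the DESeq2 Wald test, −0.016 with voom, −0.0013 with counts divided by 4 and −0.013 with the replicate block. Of 144 leave-one-out values, 38 reversed. The log2 fold changes that turned ranged, among replication genes, for Mcm2 (−0.16 to 0.085), Mcm3 (−0.0045 to 0.11), Mcm5 (−0.32 to 0.080), Mcm10 (−0.19 to 0.13), Pcna (−0.039 to 0.061), Cdc6 (−0.20 to 0.0084), Cdc45 (−0.24 to 0.00031), Gins1 (−0.22 to 0.22), Gins2 (−0.34 to 0.0031), Rrm1 (−0.30 to 0.038), Rrm2 (−0.16 to 0.023), Prim1 (−0.10 to 0.051) and Tyms (−0.039 to 0.45), and among mitosis genes for Ccna2 (−0.24 to 0.024), Ccnb1 (−0.34 to 0.11), Ccnb2 (−0.23 to 0.20), Cdk1 (−0.15 to 0.26), Cdc20 (−0.26 to 0.11), Plk1 (−0.34 to 0.27), Aurka (−0.20 to 0.31), Aurkb (−0.27 to 0.021), Bub1 (−0.13 to 0.033), Bub1b (−0.26 to 0.13), Birc5 (−0.30 to 0.11), Tpx2 (−0.31 to 0.061), Ube2c (−0.31 to 0.19) and Kif11 (−0.17 to 0.029). Leaving out a library gave medians of −0.15 to 0.030 (replication genes), −0.23 to 0.083 (mitosis genes), −0.15 to 0.026 (other replication genes), −0.16 to 0.025 (other mitosis genes) and −0.073 to −0.022 (regulators), and library totals gave −0.066 for the regulators. Over all genes, 0 were called at adjusted p thresholds of 0.05 and 0.1 in edgeR's quasi-likelihood test, against 10 without the filter, 65 in the DESeq2 Wald test, 59 in the exact test and 0 to 37 with a library left out. The study's criterion took 208 genes, against 345 without the filter, 119 with counts divided by 4 and 341 to 512 with a library left out. The cause was not tested. The labels do not say that equal replicate numbers mark a shared culture. By the study's methods, the cultures of all groups ran in parallel in replicated experiments, so same-numbered libraries may share an experiment. The deviations of same-numbered libraries had a Pearson's r of 0.14 (Spearman's rho 0.26) over 19259 genes and 0.31 (0.44) among 10491 more abundant genes (average log2 CPM past 3, all 36 members included), and with the replicate block 0 genes were called, 580 had an unadjusted p under 0.05 and the medians of the replication and mitosis genes were −0.09 and −0.08. With 2 libraries a group, the 95% intervals reached past 1.5-fold for Cdt1, Gins2, Tyms, Plk1 and Aurka.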
